A study of Arabidopsis thaliana with 9 samples.

Results

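The nuclear genes of the light-harvesting antenna and of the protein subunits of photosystems I and II were followed in Arabidopsis thaliana rosette leaves. The 43 genes were taken by locus identifier from the table of 33610 listed genes by a rule that used no measured value, though with earlier results of these data known, and all 43 were among the 22019 genes with enough reads to be tested. By role they comprised 6 genes for the antenna of photosystem I (LHCA), 15 for the antenna of photosystem II (LHCB), 10 for photosystem II (PSB, with PSBS) and 12 for photosystem I (PSA). Messenger RNA was sequenced from Col-0, a wild-type laboratory accession. The 3 groups had 3 libraries each, which the labels call biological replicates without giving the number of plants in a library. Alternaria leaves came from plants sprayed with 1000000 spores per ml of Alternaria brassicicola strain MUCL 20297, a leaf-spot fungus that feeds on killed tissue, in 0.01% Silwet L 77, and were taken 3 days later. Mock leaves came from mock treated plants, whose liquid and harvest time the labels leave out, and untreated leaves from plants labelled untreated. The labels list no transgene or mutation in any group. Plants of all 3 groups were about 5 to 6 weeks old, grown on humid soil at 22 °C with 8 h of light a day.

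Antenna proteins bind chlorophyll and carotenoids in the thylakoid membrane and pass absorbed light energy to the reaction centres. Photosystem II splits water and feeds electrons to the cytochrome b6f complex, and photosystem I takes them up from plastocyanin and reduces ferredoxin. The antenna proteins and many outer subunits are encoded in the nucleus and imported, whereas the reaction-centre proteins are encoded in the plastid, and in leaves the nuclear genes are known for strong control by light, by the circadian clock and by the state of the plastid.

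Reads assigned to genes numbered 22713147 to 36061529 per library. Levels are given as counts per 1000000 reads after scaling between libraries (CPM), changes as log2 fold changes with their standard error (SE), and a gene was called when edgeR's quasi-likelihood test gave a Benjamini-Hochberg adjusted p under 0.05 over all 22019 genes. Within a group, Pearson's r of log2 CPM between libraries was 0.984 to 0.991 across genes, which are not independent replicates. Markers of other organs were low, with sums of at most 1.77 CPM over 3 root genes and at most 4.83 CPM over 3 flower genes in any library.

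After Alternaria, nearly the whole set was lower than in mock leaves, by a similar factor. Of the 43 genes 42 fell and 0 rose, where 26.1% of all tested genes fell, 29.5% rose and 55.6% were called in either direction. The median log2 change was -0.76 over the 43 genes and -0.02 over all tested genes, and the interquartile range of the 43 was -0.91 to -0.68. The highest Alternaria library stood below the lowest mock library for the same 42 genes, against 30.5% of all tested genes, and the reverse held for 0 of the 43, against 32.8%. A fall of at least 2-fold was called for 6 genes, namely LHCA6, LHCB1.3, LHCB2.3, PSBS, PSBQ1 and PSAN, against 5.36% of all tested genes. The exception was LHCB4.3, a rare form of the antenna protein CP29. The authors' deposited table likewise has 42 of the 43 genes lower and 0 higher, with a median of -0.76.

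The 43 genes held a large part of the leaf's messenger RNA. Their share of the reads in genes was 6.65%, 6.92% and 6.05% in the Alternaria libraries, 10.5%, 11.7% and 11.4% in the mock libraries and 10.2%, 9.98% and 10.8% in the untreated libraries. All 3 Alternaria values lay below all others, while mock and untreated libraries overlapped. In whole leaves such as these, fewer cells of a type and less RNA per cell cannot be told apart. The 3 marker genes of leaf mesophyll, the rubisco gene RBCS1A, the carbonic anhydrase gene CA1 and the glycine decarboxylase gene GLDP1, were all lower, with sums of 10246 to 10364 CPM in Alternaria, 19351 to 20055 CPM in mock and 21797 to 23942 CPM in untreated leaves. These markers serve photosynthesis or photorespiration themselves. Of 4 epidermis markers 3 were lower in Alternaria than in mock leaves (sums 291 to 315, 437 to 450 and 641 to 696 CPM in Alternaria, mock and untreated leaves). Of 3 guard cell markers 1 was higher and 1 lower (sums 60.9 to 66.7, 58.2 to 60.2 and 62.1 to 73.4 CPM), and of 3 vasculature markers 1 was higher and 0 lower (sums 92.8 to 105, 69.6 to 79.7 and 90.0 to 109 CPM). The part of these differences in the result was not tested.

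**Figure D1:**
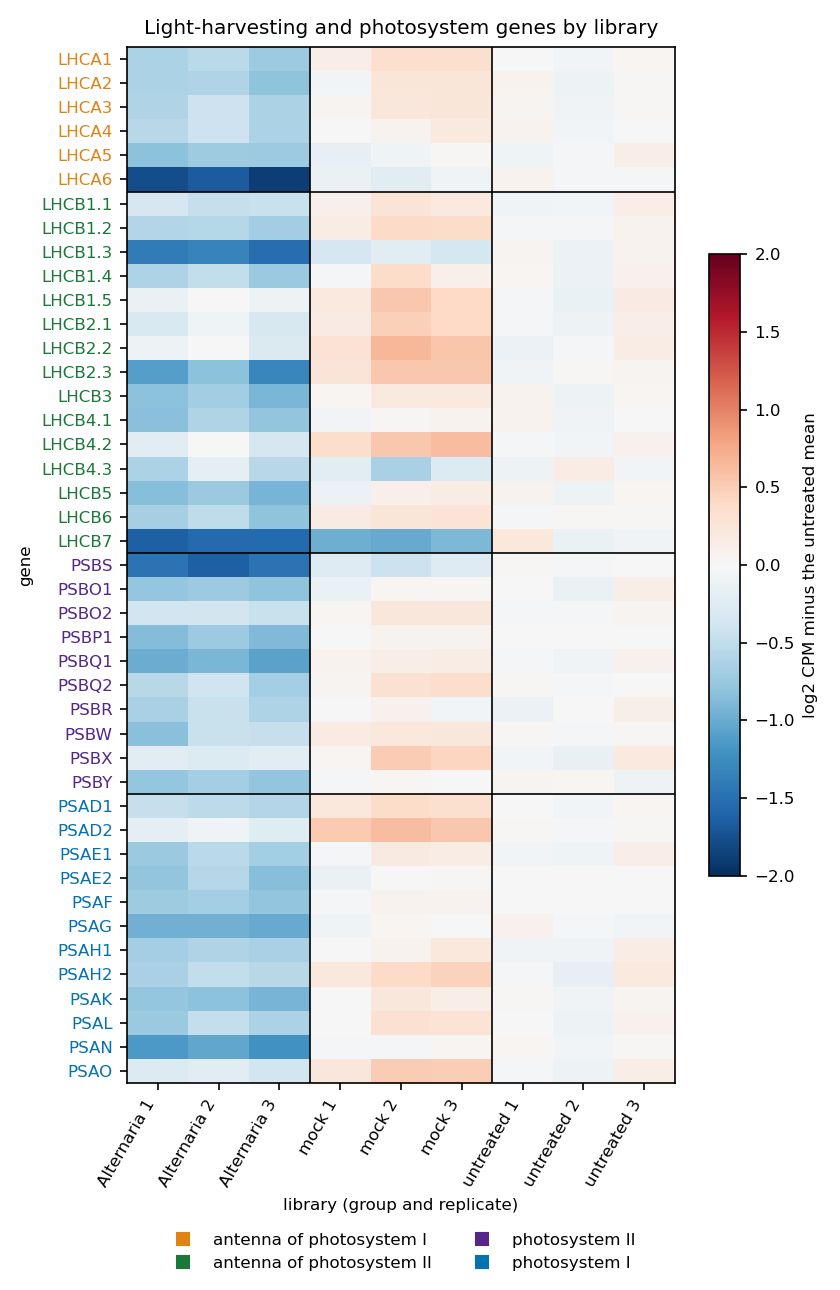
Each row is a gene and each column a library, Alternaria on the left, mock in the middle and untreated on the right. Colour gives log2 CPM minus the mean of the untreated libraries, blue for lower and red for higher. Gene names are coloured by role. The Alternaria columns are blue in nearly all rows and darkest for LHCA6, LHCB1.3, LHCB7 and PSBS, and the mock columns are pale red in many rows.

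All 6 antenna genes of photosystem I fell against mock, with a median log2 change of -0.78. LHCA1, LHCA2, LHCA3 and LHCA4 encode the belt of antenna proteins around photosystem I and changed by -0.90, -0.83, -0.72 and -0.63. Of the 50-base stretches of the LHCA2 exons 11.4% occurred elsewhere in the genome, so the value of LHCA2 is less certain. The smallest fall of the group was that of LHCA4 (AT3G47470), with 3153, 3487 and 3011 CPM in Alternaria leaves, 4641, 4897 and 5359 CPM in mock leaves and 4878, 4490.1 and 4609 CPM in untreated leaves. Its Alternaria values lay below those of both other groups, which overlapped.

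The largest fall among all 43 genes was that of LHCA6 (AT1G19150, chr1:6612630-6613972 in TAIR10.1). Together with LHCA5, its protein links photosystem I to the chloroplast NADH dehydrogenase-like complex of cyclic electron flow. It had 28.6, 31.0 and 26.6 CPM in Alternaria leaves, 89.9, 84.4 and 93.1 CPM in mock leaves and 104, 95.7 and 95.5 CPM in untreated leaves. All Alternaria values lay below all others, with no overlap, and mock values lay just below untreated ones. The log2 change was -1.63 ± 0.08 against mock (edgeR quasi-likelihood test, Benjamini-Hochberg adjusted p = 1.19e-08) and -1.77 ± 0.08 against untreated leaves. LHCA5 (AT1G45474) had 47.3, 51.0 and 50.7 CPM in Alternaria leaves, 74.8, 78.5 and 85.3 CPM in mock leaves and 78.5, 81.4 and 91.5 CPM in untreated leaves. It was lower in all Alternaria libraries too, but its change of -0.68 ± 0.08 against mock was close to the median of the set although its protein has the same linking role. Each of these linker genes had at most 104 CPM, against 1958 to 5379.8 CPM for LHCA1 to LHCA4.

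Of the 15 antenna genes of photosystem II, 14 fell against mock, with a median log2 change of -0.75. LHCB1 and LHCB2 proteins, with LHCB3, form the trimers of the main antenna, and LHCB1 and LHCB2 are phosphorylated when antenna moves between the photosystems. The changes of the 5 LHCB1 genes ranged from -1.12 to -0.46. The gene emphasised here, LHCB1.3 (AT1G29930, chr1:10477885-10479114), was chosen after its values were seen. It was the most abundant of the 43 per length in every group, with a mean of 7009.7 CPM per kb of exon in Alternaria, 15199.8 in mock and 18742 in untreated leaves, where the next gene of each group had 3298, 4743 and 4181 CPM per kb. LHCB1.3 had 8742, 9078 and 8046 CPM in Alternaria leaves, 18161, 19874 and 18053 CPM in mock leaves and 23851, 21228 and 24079.7 CPM in untreated leaves. The 3 groups did not overlap and were ordered Alternaria, mock, untreated from low to high, with log2 changes of -1.12 ± 0.08 for Alternaria against mock and -0.30 ± 0.08 for mock against untreated leaves (edgeR quasi-likelihood test, Benjamini-Hochberg adjusted p = 0.0167 for the second).

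Its neighbours on chromosome 1, LHCB1.1 (AT1G29920) and LHCB1.2 (AT1G29910), changed by -0.59 ± 0.08 and -0.91 ± 0.08 against mock, and LHCB1.4 and LHCB1.5 on chromosome 2 by -0.77 ± 0.11 and -0.46 ± 0.10. LHCB1.3 made up 45.7% ± 0.913 of the counts of the 5 genes in Alternaria, 54.1% ± 1.52 in mock and 63.5% ± 1.32 in untreated leaves (mean ± SD, n = 3 each), with no overlap between groups. The coding sequences of LHCB1.1, LHCB1.2 and LHCB1.3 were 95.6 to 96.4% identical, and 10.6 to 20.5% of the 50-base stretches of an LHCB1 gene's exons occurred elsewhere in the genome. Reads from such stretches have no single place, and neither read length nor the handling of these reads is stated, so the values of single LHCB1 genes are uncertain.

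Within LHCB2, the gene LHCB2.3 (AT3G27690, chr3:10255906-10257489) stood apart. It had 548, 666 and 479 CPM in Alternaria leaves, 1414, 1705 and 1705 CPM in mock leaves and 1120.4, 1191 and 1225 CPM in untreated leaves. Its Alternaria values were below all others and its mock values above all untreated values. The log2 change was -1.51 ± 0.12 against mock (edgeR quasi-likelihood test, Benjamini-Hochberg adjusted p = 3.26e-07), the largest fall in the antenna of photosystem II. LHCB2.1 and LHCB2.2 changed by -0.58 ± 0.10 and -0.63 ± 0.11, and LHCB2.3 accordingly made up 12.7% ± 0.806, 21.6% ± 0.574 and 21.3% ± 0.953 of LHCB2 counts in Alternaria, mock and untreated leaves (mean ± SD, n = 3 each). No 50-base stretch of LHCB2.3 occurred elsewhere, against 23.5% of LHCB2.1 and 29.5% of LHCB2.2. LHCB2.3 overlaps AT3G27700 on the other strand by 595 bases, a gene with a mean of 34.7 CPM, and whether counting used the strand is not stated in the labels.

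Among the remaining antenna proteins, LHCB3 (the remaining partner in the trimers), LHCB5 (CP26) and LHCB6 (CP24) changed by -0.95, -0.89 and -0.88 against mock. CP29, which sits between the trimers and the reaction centre, is encoded by LHCB4.1, LHCB4.2 and LHCB4.3. LHCB4.1 (AT5G01530) had 1111, 1318 and 1158 CPM in Alternaria leaves, 1919, 2030.2 and 2083 CPM in mock leaves and 2096, 1902 and 1979 CPM in untreated leaves, and its change against mock was -0.75 ± 0.08. LHCB4.2 (AT3G08940) had 642, 752 and 587 CPM in Alternaria leaves, 947, 1083 and 1144 CPM in mock leaves and 733, 714 and 787 CPM in untreated leaves, and its change was -0.68 ± 0.10. The Alternaria values of both genes lay below all mock values, and in LHCB4.2 alone of the pair Alternaria and untreated values overlapped. LHCB4.3 (AT2G40100, chr2:16745628-16747424) had 18.1, 24.4 and 19.1 CPM in Alternaria leaves, 24.0, 17.8 and 23.0 CPM in mock leaves and 26.0, 31.1 and 27.1 CPM in untreated leaves. Its Alternaria and mock values overlapped, with a change of -0.08 ± 0.13 (edgeR quasi-likelihood test, Benjamini-Hochberg adjusted p = 0.645), and both groups lay below the untreated values. At 14.2, 14.9 and 19.4 CPM per kb of exon in Alternaria, mock and untreated leaves, it was with LHCB7 one of the 2 least abundant genes of the set in each group, and its SE was the largest of the 43.

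LHCB7 (AT1G76570, chr1:28728998-28730851), a rarely transcribed relative of the antenna genes, had 14.8, 15.5 and 15.5 CPM in Alternaria leaves, 23.2, 22.8 and 24.7 CPM in mock leaves and 52.9, 41.7 and 43.4 CPM in untreated leaves. The groups did not overlap, and the difference between mock and untreated leaves (-0.96 ± 0.09, edgeR quasi-likelihood test, Benjamini-Hochberg adjusted p = 1.64e-05) was the largest of the 43 in that comparison. Alternaria leaves were lower again, by -0.63 ± 0.09 against mock.

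The promoters of 7 genes of the antenna of photosystem II are shown because these genes span the range of levels and of changes in that antenna. Each is the 250 bases before the annotated start in the RefSeq annotation of TAIR10.1, read 5′ to 3′ along the gene's strand. Capitals mark matches, on either strand, to 6 motifs searched. Among them were the G-box CACGTG, the I-box GATAAG, the CCAATC box, the evening element AAAATATCT and the W-box, given by TTGACC or TTGACT. The remaining motif was the CCA1 binding site, searched only in the form AAAAATCT.
LHCB1.1 promoter, chr1:10475970-10476219, minus strand: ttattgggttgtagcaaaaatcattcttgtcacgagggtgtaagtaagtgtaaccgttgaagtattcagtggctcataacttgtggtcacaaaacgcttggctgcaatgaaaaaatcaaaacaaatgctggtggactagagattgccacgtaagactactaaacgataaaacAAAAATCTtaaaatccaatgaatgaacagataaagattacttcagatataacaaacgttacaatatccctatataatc
LHCB1.2 promoter, chr1:10473503-10473752, minus strand: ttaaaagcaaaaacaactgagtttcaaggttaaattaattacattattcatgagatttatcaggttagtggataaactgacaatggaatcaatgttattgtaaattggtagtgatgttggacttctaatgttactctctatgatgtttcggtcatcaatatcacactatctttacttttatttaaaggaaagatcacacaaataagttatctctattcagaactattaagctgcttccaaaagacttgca
LHCB1.3 promoter, chr1:10477635-10477884, plus strand: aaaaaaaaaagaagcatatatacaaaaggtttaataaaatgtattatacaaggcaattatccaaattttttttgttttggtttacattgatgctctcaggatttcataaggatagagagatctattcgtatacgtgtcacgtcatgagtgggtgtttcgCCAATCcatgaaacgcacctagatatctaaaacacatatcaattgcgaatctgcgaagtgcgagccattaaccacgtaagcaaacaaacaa
LHCB2.2 promoter, chr2:1800473-1800722, minus strand: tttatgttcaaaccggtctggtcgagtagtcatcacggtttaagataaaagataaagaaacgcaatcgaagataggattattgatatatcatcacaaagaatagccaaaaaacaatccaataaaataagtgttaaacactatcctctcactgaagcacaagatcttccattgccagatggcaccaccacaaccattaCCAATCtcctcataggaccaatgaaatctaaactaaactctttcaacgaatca
LHCB2.3 promoter, chr3:10255656-10255905, plus strand: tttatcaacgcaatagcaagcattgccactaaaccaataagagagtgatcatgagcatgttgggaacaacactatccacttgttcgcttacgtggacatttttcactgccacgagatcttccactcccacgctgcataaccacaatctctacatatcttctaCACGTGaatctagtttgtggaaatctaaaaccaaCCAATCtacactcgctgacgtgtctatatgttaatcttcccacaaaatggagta
LHCB4.2 promoter, chr3:2717307-2717556, plus strand: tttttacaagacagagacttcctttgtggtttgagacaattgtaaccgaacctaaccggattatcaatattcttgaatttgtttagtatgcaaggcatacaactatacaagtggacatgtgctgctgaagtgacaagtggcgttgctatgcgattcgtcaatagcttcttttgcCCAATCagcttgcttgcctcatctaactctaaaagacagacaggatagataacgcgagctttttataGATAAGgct
LHCB4.3 promoter, chr2:16745378-16745627, plus strand: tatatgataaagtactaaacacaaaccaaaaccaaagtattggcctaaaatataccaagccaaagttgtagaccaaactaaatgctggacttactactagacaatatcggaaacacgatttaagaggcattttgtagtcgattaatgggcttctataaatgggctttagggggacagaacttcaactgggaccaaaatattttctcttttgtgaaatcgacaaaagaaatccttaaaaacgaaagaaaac

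The CCAATC box was found in 10 of 21 antenna promoters (47.6%), in 0 of 12 photosystem I promoters and in 1 of 10 photosystem II promoters, against 10.2% of 27443 protein-coding promoters. It lay 59, 53 and 54 bases before the start of LHCB2.1, LHCB2.2 and LHCB2.3, and 91, 89 and 76 bases before LHCB1.3, LHCB1.5 and LHCB4.2. Genes with the box changed both more (LHCB2.3) and less (LHCB1.5) than the median, and LHCB4.3, LHCB1.2 and LHCA6 held none of the 6 motifs. The same was true of many others of the 43, such as LHCA2, LHCB3, LHCB5, PSBS, PSBO1 and PSAG. The G-box was in 9 of 43 promoters (20.9%, against 6.49% of all) and the I-box in 9 (20.9%, against 12.3%). The searched form of the CCA1 binding site was in 5 (11.6%, against 6.69%). The evening element was in 1 promoter, that of LHCA5 (2.33%, against 2.36%), and the W-box in 5 (11.6%, against 28.4%). A match is a run of letters and shows no binding.

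**Figure D2:**
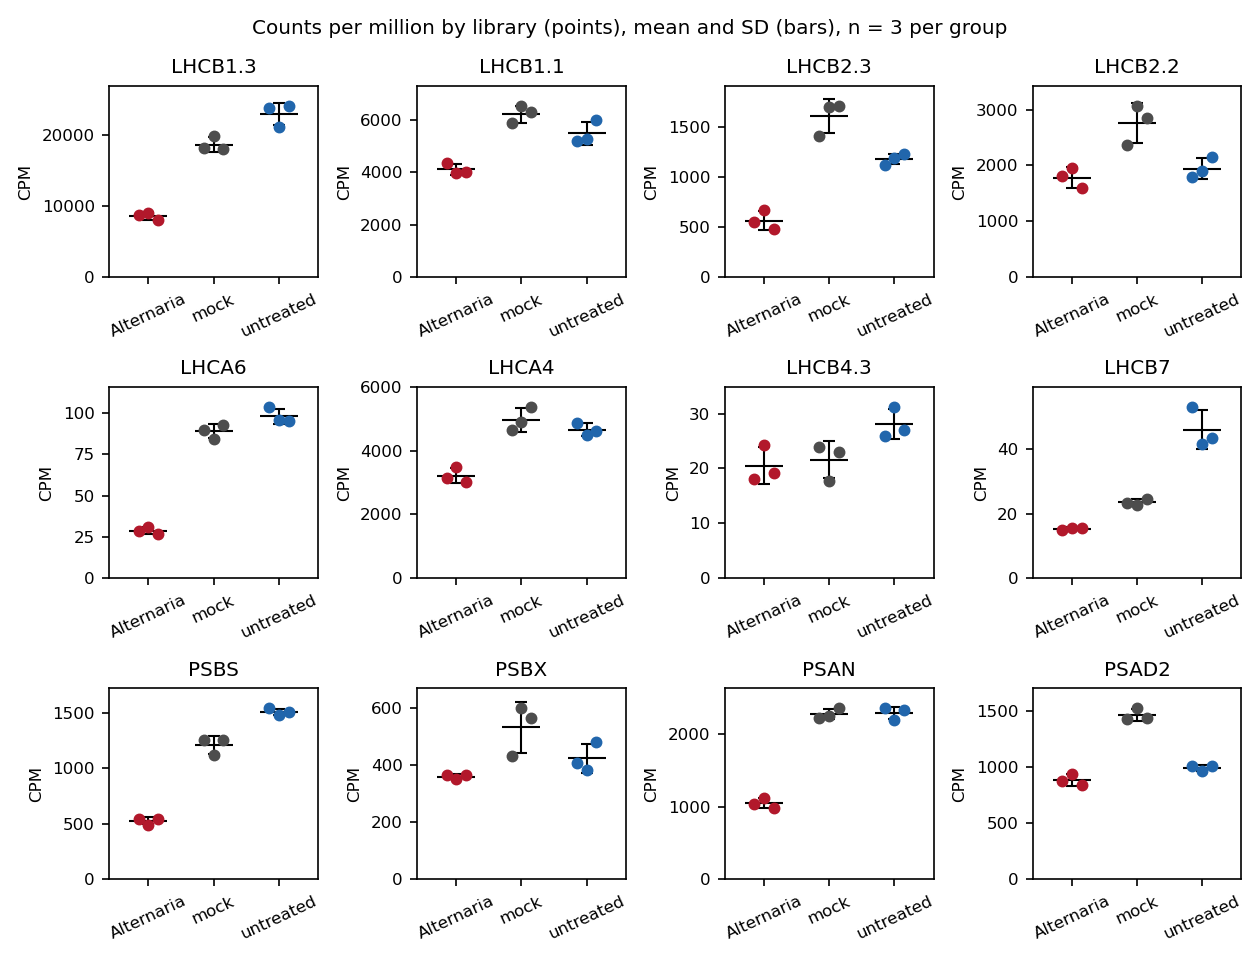
Panels give the scaled counts per 1000000 reads of 12 genes by library (points) for Alternaria, mock and untreated leaves, with the mean and SD as bars (n = 3 per group, each axis from 0). LHCB1.3, LHCB7 and PSBS step up at each group from left to right, LHCB2.3 and PSAD2 peak in mock leaves, and the Alternaria and mock points of LHCB4.3 overlap.

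All 10 photosystem II genes fell against mock, with a median log2 change of -0.76. PSBS (AT1G44575, chr1:16870221-16873427), whose protein senses a low lumen pH and switches the antenna to heat dissipation, fell most. It had 541, 489.6 and 546 CPM in Alternaria leaves, 1261, 1119 and 1259 CPM in mock leaves and 1543, 1487 and 1509 CPM in untreated leaves. The 3 groups did not overlap, with untreated leaves highest. Changes were -1.21 ± 0.08 for Alternaria against mock and -0.32 ± 0.07 for mock against untreated leaves (edgeR quasi-likelihood test, Benjamini-Hochberg adjusted p = 0.00738 for the second). The smallest fall was that of PSBX (AT2G06520), a small membrane subunit, with 365, 349.5 and 364 CPM in Alternaria leaves, 432, 598 and 565 CPM in mock leaves and 408, 382 and 481 CPM in untreated leaves. Its Alternaria libraries lay close together and below every other library, its mock libraries spread widely, and only the comparison with mock was called (-0.56 ± 0.12, edgeR quasi-likelihood test, Benjamini-Hochberg adjusted p = 0.00113).

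The proteins of the water-splitting side, PSBO, PSBP and PSBQ, shield the manganese cluster. PSBO1 (AT5G66570), the main form of PSBO, had 1969, 2044 and 1939.8 CPM in Alternaria leaves, 3084, 3456 and 3437 CPM in mock leaves and 3380.2, 3086 and 3683 CPM in untreated leaves. PSBO2 (AT3G50820) had 889.9, 900.3 and 854 CPM in Alternaria leaves, 1194, 1357 and 1363 CPM in mock leaves and 1150.4, 1142 and 1204 CPM in untreated leaves. Alternaria values were below all others in both genes, with changes of -0.75 ± 0.08 and -0.57 ± 0.07 against mock. PSBQ1 (AT4G21280) had 516, 548 and 493 CPM in Alternaria leaves, 1079, 1131 and 1137 CPM in mock leaves and 1018, 978 and 1098 CPM in untreated leaves. PSBQ2 (AT4G05180) had 1085, 1207 and 993 CPM in Alternaria leaves, 1647, 1971 and 2034 CPM in mock leaves and 1617, 1558 and 1592 CPM in untreated leaves. Here too the Alternaria libraries were lowest, and PSBQ1 changed by -1.10 ± 0.07 and PSBQ2 by -0.78 ± 0.09. PSBP1 changed by -0.87, and the small subunits PSBR, PSBW and PSBY by -0.59, -0.77 and -0.75.

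All 12 photosystem I genes fell against mock, and they were the most alike, with changes from -1.12 to -0.70, a median of -0.79 and an SD between genes of 0.13, against 0.33 in the 21 antenna genes and 0.22 in photosystem II. The largest fall was that of PSAN (AT5G64040, chr5:25628521-25629708), a lumenal subunit that helps plastocyanin deliver electrons. It had 1034, 1120.0 and 988 CPM in Alternaria leaves, 2227, 2246 and 2357 CPM in mock leaves and 2356, 2204 and 2334 CPM in untreated leaves. Alternaria libraries lay below all others, and mock and untreated values overlapped (change -1.12 ± 0.07 against mock). The smallest fall was that of PSAE2 (AT2G20260), with 154, 178 and 147 CPM in Alternaria leaves, 241, 263 and 271 CPM in mock leaves and 263, 268 and 265 CPM in untreated leaves. Its paralogue PSAE1 (AT4G28750) had 355, 409 and 370.0 CPM in Alternaria leaves, 584, 671 and 660.0 CPM in mock leaves and 572, 561 and 655 CPM in untreated leaves. PSAE and PSAD form the stromal ridge where ferredoxin docks, and in both PSAE genes only the Alternaria libraries stood apart, by -0.70 ± 0.08 and -0.76 ± 0.09.

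PSAD1 (AT4G02770) had 1717, 1639 and 1569 CPM in Alternaria leaves, 2744, 3039 and 2938 CPM in mock leaves and 2386, 2277 and 2437 CPM in untreated leaves. PSAD2 (AT1G03130, chr1:753307-754262) had 872, 941 and 838 CPM in Alternaria leaves, 1428, 1523 and 1439 CPM in mock leaves and 1013, 965 and 1005 CPM in untreated leaves. Both were highest in mock leaves in every library, and fell by 0.82 and 0.73 on the log2 scale in Alternaria against mock leaves. PSAH1 (AT3G16140) had 169.9, 179 and 173 CPM in Alternaria leaves, 268, 285 and 314 CPM in mock leaves and 257, 259 and 299.6 CPM in untreated leaves. PSAH2 (AT1G52230) had 518, 579 and 556 CPM in Alternaria leaves, 941, 1063 and 1123 CPM in mock leaves and 801, 728 and 928 CPM in untreated leaves. PSAH, PSAL and PSAO form the side of photosystem I where mobile antenna trimers dock, and they changed by -0.73 (PSAH1), -0.92 (PSAH2), -0.81 (PSAL) and -0.70 (PSAO). PSAF, with a role in plastocyanin binding, changed by -0.76, and PSAG and PSAK, at the edges of the complex, by -0.96 and -0.97. Of the photosystem I genes, PSAH1 overlaps AT3G16130 by 788 bases on the other strand, PSAG overlaps AT1G55673 by 479, PSAE1 overlaps AT4G28755 by 436 and PSAH2 overlaps AT1G52240 by 174. The overlaps of PSAD2, PSAE2 and PSAN with a neighbour were at most 63 bases. In the antenna, LHCB1.5 overlaps AT2G08665 by 1045 bases and LHCB6 overlaps AT1G05207 by 358, both on the other strand. Neither AT2G08665 nor AT1G05207 was among the genes counted, so no reads were assigned to them and their levels are not known.

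The class medians against mock lay close together, with -0.75 for the whole antenna, -0.79 for photosystem I and -0.76 for photosystem II, all within the spread between genes of a class. Within the reads of the 43 genes, the antenna held 65.5% ± 0.521 in Alternaria, 65.7% ± 0.401 in mock and 66.3% ± 0.464 in untreated leaves. Photosystem I held 19.1% ± 0.250, 19.4% ± 0.109 and 18.4% ± 0.203, and photosystem II 15.4% ± 0.332, 14.9% ± 0.310 and 15.3% ± 0.306 (mean ± SD, n = 3 each, in the same order of groups). The summed photosystem I reads over photosystem II reads gave 1.22 to 1.26 in Alternaria, 1.28 to 1.32 in mock and 1.19 to 1.23 in untreated leaves, so mock libraries lay above both others. Antenna of photosystem II over photosystem II gave 3.02 to 3.19 in Alternaria, 3.21 to 3.40 in mock and 3.197 to 3.37 in untreated leaves. Alternaria libraries were lowest, but this antenna sum rests heavily on LHCB1.3. That gene alone held 13.6%, 16.7% and 21.7% of the reads of the 43 genes in Alternaria, mock and untreated leaves (means, n = 3 each). The ratio without LHCB1.3 was not taken, so this order of groups is not read as one of the whole class. Antenna of photosystem I over photosystem I gave 0.891 to 0.944 in Alternaria, 0.847 to 0.893 in mock and 0.841 to 0.877 in untreated leaves. Here Alternaria libraries lay above untreated ones and overlapped mock ones.

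**Figure D3:**
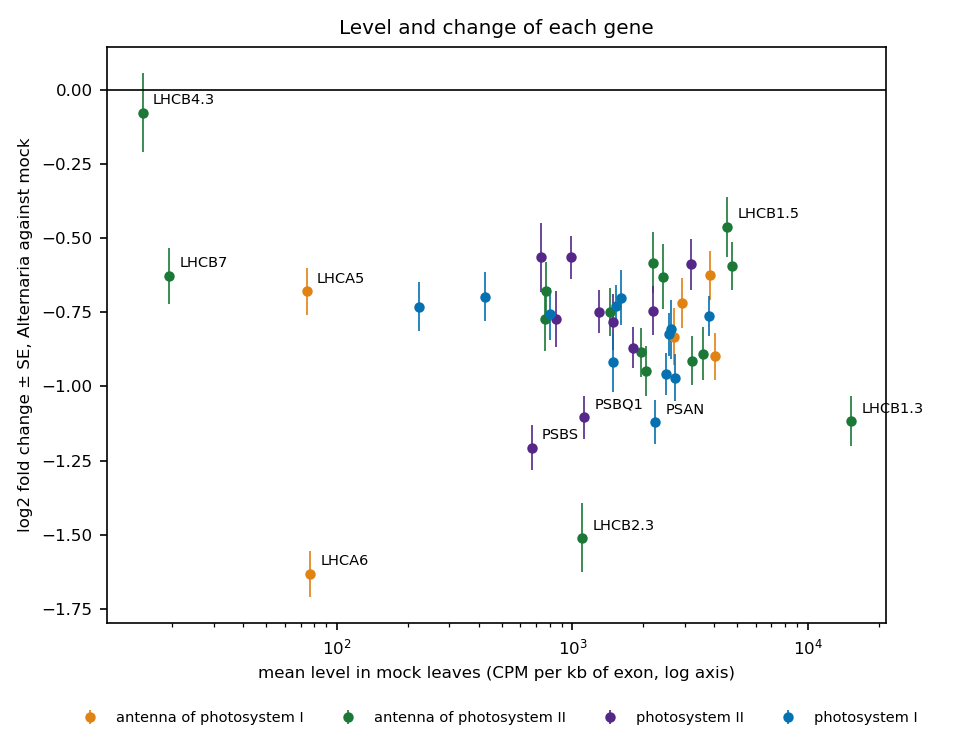
The horizontal axis (log scale) gives each gene's mean level in mock leaves in CPM per kb of exon, and the vertical axis its log2 fold change in Alternaria against mock leaves with its SE. Points are coloured by class. The interquartile range of the changes is -0.91 to -0.68, LHCA6 and LHCB2.3 lie lowest, and LHCB4.3 lies near 0.

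Mock and untreated leaves differed less. Of the 43 genes 11 rose and 3 fell in mock leaves, where 15.1% of all tested genes rose, 14.1% fell and 29.3% were called, and the median log2 change was 0.14. No gene of the 43 fell by 2-fold or more, against 2.62% of all tested genes. Groups did not overlap in 15 genes with mock higher, against 22.7% of all, and in 5 with mock lower, against 21.9%. The 11 that rose were LHCA1, LHCB1.2, LHCB1.5, LHCB2.1, LHCB2.2, LHCB2.3, LHCB4.2, PSAD1, PSAD2, PSAH2 and PSAO, at 0.27 to 0.56, with PSAD2 highest (0.56 ± 0.07, edgeR quasi-likelihood test, Benjamini-Hochberg adjusted p = 1.38e-04). The 3 were LHCB1.3, LHCB7 and PSBS. By class, 7 of 21 antenna genes rose and 2 fell, 4 of 12 photosystem I genes rose and 0 fell, and 0 of 10 photosystem II genes rose and 1 fell. LHCB2.2, LHCB2.3, LHCB4.2, PSAD1, PSAD2 and PSAO remained higher and LHCB7 and PSBS lower under all 16 alternative settings and leave-outs. The number of genes that rose was 6 without untreated replicate 2 or without mock replicate 2 and 7 without mock replicate 3. LHCA1, LHCB1.2, LHCB2.1 and PSAH2 were not called without any 1 of these 3 libraries, LHCB1.5 without either replicate 2, and LHCB1.3 without untreated replicate 3, mock replicate 1 or mock replicate 3. The authors' deposited table has 17 of the 43 higher and 4 lower in mock leaves, with a median of 0.16.

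The morning clock genes CCA1 and LHY differed between the same groups. CCA1, a morning regulator that binds antenna gene promoters, had 115, 122 and 136 CPM in Alternaria leaves, 229.8, 219 and 225 CPM in mock leaves and 655, 568 and 539 CPM in untreated leaves. LHY, its close relative, had 152, 171 and 171 CPM in Alternaria leaves, 274, 269 and 247 CPM in mock leaves and 744, 718 and 643 CPM in untreated leaves. Neither gene's groups overlapped, and both were lowest in Alternaria and highest in untreated leaves, with changes of -1.39 ± 0.09 and -1.41 ± 0.08 for mock against untreated and -0.86 ± 0.09 and -0.68 ± 0.08 for Alternaria against mock leaves. Of 9 clock genes tested 4 fell and 0 rose in mock against untreated leaves, where 29.3% of all tested genes were called. In Alternaria against mock leaves 3 fell and 4 rose, where 55.6% of all were called, with TOC1 (1.49 ± 0.11), PRR5 (1.03 ± 0.23) and CCA1 changing most. Harvest hours are not stated in the labels, and the part of the clock genes in these results was not tested.

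Against untreated leaves, 38 of the 43 genes fell after Alternaria and 0 rose, where 31.8% of all tested genes fell, 33.1% rose and 64.9% were called. The median log2 change was -0.64, against -0.04 over all tested genes. A fall of at least 2-fold was called for 6 of the 43, against 12.5% of all. Groups did not overlap, with Alternaria lower, in 39 of the 43, against 33.6% of all, and with Alternaria higher in 0, against 35.0%. By class 17 of 21 antenna genes, all 12 photosystem I genes and 9 of 10 photosystem II genes fell. The 5 genes not called were LHCB1.5, LHCB2.1, LHCB2.2, LHCB4.2 and PSBX. PSAD2 was at the edge (-0.17 ± 0.07, edgeR quasi-likelihood test, Benjamini-Hochberg adjusted p = 0.0468) and was not called under 12 of the 16 alternatives, and PSAO was not called without untreated replicate 3 or Alternaria replicate 3. With upper-quartile scaling all 43 genes fell, but that scaling moved the median of all tested genes by -0.196 in this comparison. The authors' deposited table has 37 lower and 0 higher, with a median of -0.60.

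Setting the 3 comparisons side by side, which share libraries and are not independent, 27 genes were lower in Alternaria than in both other groups with no call between mock and untreated leaves. Another 7 rose in mock leaves and were lowest in Alternaria leaves (LHCA1, LHCB1.2, LHCB2.3, PSAD1, PSAD2, PSAH2 and PSAO). LHCB1.5, LHCB2.1, LHCB2.2 and LHCB4.2 rose in mock leaves and were not called between Alternaria and untreated leaves. LHCB1.3, LHCB7 and PSBS fell at both steps. LHCB4.3 was called only in Alternaria against untreated leaves (-0.46 ± 0.13), and its mock against untreated value of -0.38 ± 0.13 missed the threshold narrowly (edgeR quasi-likelihood test, Benjamini-Hochberg adjusted p = 0.0505). This second difference was called under 8 of the 16 alternatives and in the authors' deposited table, so the pattern of LHCB4.3 is not firm.

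**Figure D4:**
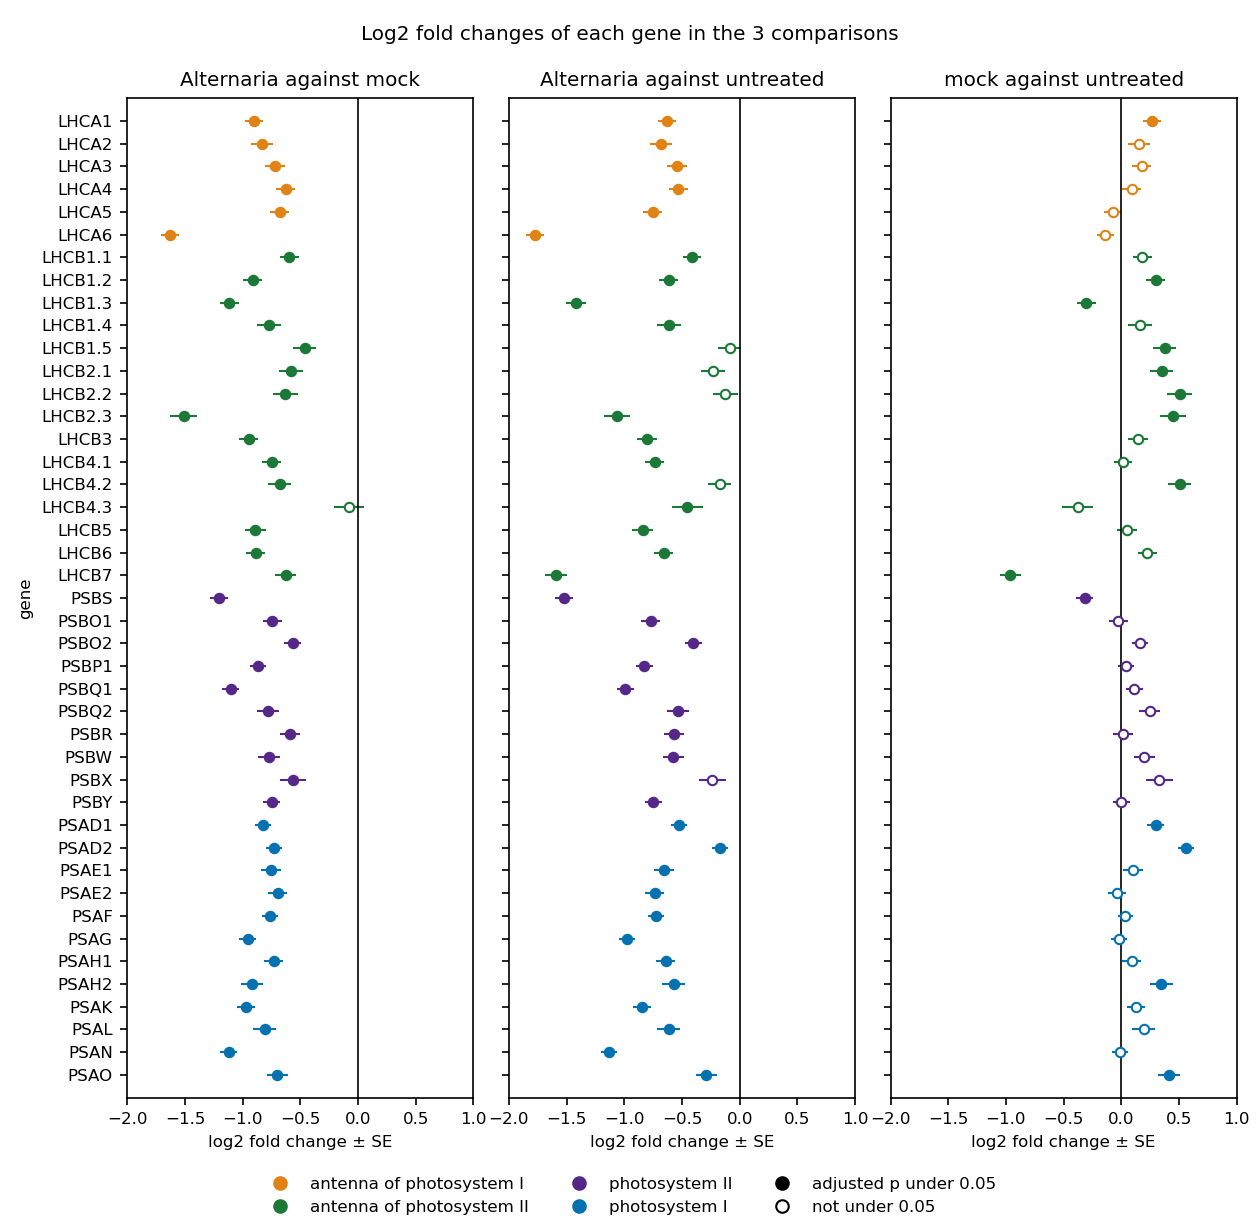
Log2 fold changes with SE of the 43 genes for Alternaria against mock (left), Alternaria against untreated (middle) and mock against untreated leaves (right), coloured by class. Filled points have an adjusted p under 0.05. In the left panel 42 points are filled and below 0, in the middle 38, and in the right panel 11 are filled above and 3 below 0.

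Paralogous genes for the same subunit were compared by their count ratio in each library, in 6 pairs, with an exact two-sided permutation test of the log2 ratio. With 3 libraries against 3 its smallest possible p is 0.1, so no difference could pass 0.05. LHCB4.1 over LHCB4.2 was 1.73, 1.75 and 1.97 in Alternaria leaves, 2.03, 1.87 and 1.82 in mock leaves and 2.86, 2.66 and 2.51 in untreated leaves. The first 2 groups overlapped (difference in log2 ratio -0.07, exact p = 0.5) and both lay below untreated leaves (-0.56 and -0.49, exact p = 0.1 each). PSBO1 over PSBO2 was 2.21, 2.27 and 2.27 in Alternaria leaves, 2.58, 2.55 and 2.52 in mock leaves and 2.94, 2.70 and 3.06 in untreated leaves. Its groups did not overlap, and each step had exact p = 0.1 (-0.18 and -0.18 in log2 ratio for Alternaria against mock and mock against untreated leaves).

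PSBQ1 over PSBQ2 was 0.475, 0.454 and 0.497 in Alternaria leaves, 0.655, 0.574 and 0.559 in mock leaves and 0.63, 0.628 and 0.69 in untreated leaves. Alternaria libraries had the lowest ratios (-0.32 against mock, exact p = 0.1), while mock and untreated libraries overlapped. PSAD1 over PSAD2 was 1.97, 1.74 and 1.87 in Alternaria leaves, 1.92, 2.00 and 2.04 in mock leaves and 2.36, 2.36 and 2.42 in untreated leaves. Alternaria and mock libraries overlapped (exact p = 0.2) and both lay below untreated ones (-0.26 for mock against untreated, exact p = 0.1). PSAH1 over PSAH2 was 0.328, 0.31 and 0.311 in Alternaria leaves, 0.285, 0.269 and 0.279 in mock leaves and 0.321, 0.355 and 0.323 in untreated leaves. Mock libraries were lowest (0.19 for Alternaria against mock and -0.26 for mock against untreated, exact p = 0.1 each). PSAE1 over PSAE2 ranged from 2.09 to 2.55 over all 9 libraries, with overlap between Alternaria and each other group and exact p of 0.3 to 0.4 in the 3 comparisons. Adjusted over the 6 pairs of a comparison with the Benjamini-Hochberg method, every exact permutation p was 0.15 or more.

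**Figure D5:**
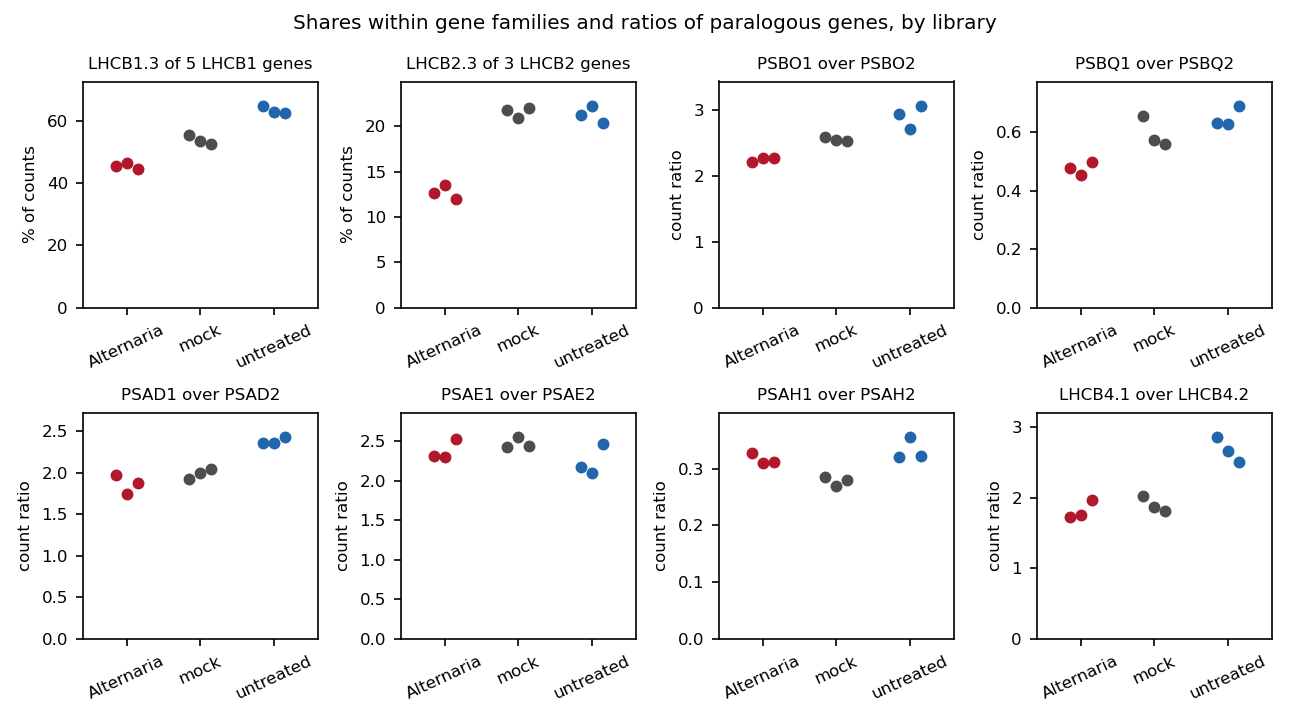
Points are libraries of Alternaria, mock and untreated leaves, left to right in each panel, with axes from 0. The first panels give the percent of LHCB1 counts in LHCB1.3 and of LHCB2 counts in LHCB2.3, and the others the count ratio of 6 gene pairs. The LHCB1.3 share and the PSBO1 ratio step up from left to right, and the LHCB2.3 share is low in Alternaria leaves only.

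Other genes of the pathway were counted in lists chosen for their roles, to be read against the 26.1% of all tested genes that fell, the 29.5% that rose and the median of -0.02 over all tested genes in Alternaria against mock leaves. All 11 genes for electron carriers and the ATP synthase fell in Alternaria against mock leaves, with a median of -0.70. The largest changes were those of ferredoxin FD2 (-1.05 ± 0.07), plastocyanin PETE2 (-0.99 ± 0.08) and the ATP synthase subunit ATPD (-0.94 ± 0.07). All 15 genes for antenna import and photosystem assembly fell, with a median of -0.60, led by the photosystem II assembly factors HCF136 (-1.11 ± 0.07) and PSB28 (-1.06 ± 0.08) and the antenna import factor LTD (-0.92 ± 0.08). Of 16 genes for thylakoid regulation and photoprotection 10 fell and 0 rose, with CURT1A, which bends grana margins, at -1.16 ± 0.09, the chlorophyll synthesis anchor LIL3.1 at -0.84 ± 0.07 and PGRL1A of cyclic electron flow at -0.76 ± 0.07. With upper-quartile scaling, which moved the median of all tested genes by -0.175, 14 of the 16 fell.

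Of 10 regulators of photosynthesis genes 7 fell and 2 rose in Alternaria against mock leaves, where 26.1% of all tested genes fell and 29.5% rose. GLK1 and GLK2 are transcription factors that activate antenna genes. GLK1 (AT2G20570) had 243, 203 and 216 CPM in Alternaria leaves, 279, 309 and 325 CPM in mock leaves and 317, 305 and 293 CPM in untreated leaves. GLK2 (AT5G44190) had 111, 116 and 103 CPM in Alternaria leaves, 249, 237 and 240.3 CPM in mock leaves and 198, 219 and 237 CPM in untreated leaves. Both were lowest in Alternaria leaves, where GLK2 changed by -1.14 ± 0.08 and GLK1 by -0.46 ± 0.08 against mock. GUN4, an activator of magnesium chelatase, changed by -0.87 ± 0.07, and the plastid sigma factor SIG1 and the GATA factor GNC by -0.65 ± 0.08 and -0.65 ± 0.12. The GATA factor CGA1 (0.55 ± 0.11) and the plastid signalling gene GUN1 (0.34 ± 0.07) rose against mock, and with upper-quartile scaling 1 of the 10 rose. CGA1 had 17.9, 18.2 and 16.4 CPM in Alternaria leaves, 10.9, 11.4 and 13.6 CPM in mock leaves and 52.5, 60.4 and 49.3 CPM in untreated leaves. Its untreated values were far above both other groups, with changes of -1.63 ± 0.10 for Alternaria against untreated and -2.18 ± 0.10 for mock against untreated leaves. In Alternaria against untreated leaves 9 of the 10 regulators fell and 1, GUN1, rose (0.18 ± 0.07), where 31.8% of all tested genes fell and 33.1% rose. With upper-quartile scaling 9 of the 10 fell and 0 rose in that comparison.

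Of the plastid-encoded genes of the reaction centres, none was called between Alternaria and mock leaves, where 55.6% of all tested genes were called. The 8 tested were psbA, psbB, psbC, psbD, psbE, psaA, psaB and psaC, of which 0 were called by edgeR's quasi-likelihood test, with changes from -0.32 to 0.22 and SEs of 0.13 to 0.37, and with upper-quartile scaling 2 fell. In mock against untreated leaves 6 of the 8 fell and 0 rose, where 14.1% of all tested genes fell and 15.1% rose. Their median was -0.65, where the median of the 43 nuclear genes was 0.14. Against untreated leaves, 6 of the 8 fell in Alternaria leaves too, where 31.8% of all tested genes fell. The share of reads in plastid genes was 2.66 to 3.22% in Alternaria, 3.51 to 4.34% in mock and 4.66 to 5.97% in untreated libraries, with no overlap between groups, and its part in these values was not tested. Libraries were made from polyadenylated RNA, and plastid messages are mostly not polyadenylated, so these values rest on the part of the plastid RNA that was carried along.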

How the data were processed

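Libraries of 250 to 650 bp were made from polyadenylated RNA out of 3 µg of total RNA, per the labels' protocols. Per the submitters' processing notes, TopHat2 2.0.12 aligned the reads to TAIR10, HTSeq counted them and DESeq2 1.8.2 was used for comparisons. Whether counting used the strand, and the annotation release, are not stated. The deposited files of the authors give raw counts for each gene, with 1 file a library. Further tables deposited by the authors give, per the file headers, log2 fold changes with p-values and adjusted p-values. A positive value there means higher in the group named second, as checked against the counts (97.6% to 100.0% of the genes compared had that sign).

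The members and gene lists were chosen with earlier results of these data known. Count lines that name no gene, 7.73 to 11.2% of a library, were dropped. After filterByExpr (minimum count 10) and TMM scaling, a single edgeR 4.0.16 model (R 4.3.3) held the 9 libraries, with a mean for each group and 6 residual degrees of freedom. SE is the log2 change over the square root of F. A count of 0 would allow up to 3 counts, or 0.0832 to 0.139 CPM, for counting error only. The biological coefficient of variation was 0.107, and replicates differed beyond sampling noise, so each counted as 1 sample. The steps were also run on simulated counts, in which far fewer genes changed than were called in these data. That run therefore does not test the scaling or the error rate under the conditions of these data.

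Positions, promoters, exon lengths and coding identity came from the RefSeq annotation of TAIR10.1 (Biopython 1.88), and levels between genes were compared per kb of exon. Values are given per sample for the largest and the smallest change of each class against mock, for the largest called change in either direction between mock and untreated leaves, for 6 paralogue pairs and for LHCB4.3, LHCB7, LHCA5, LHCA6 and PSBS. Of other lists up to 3 genes with the largest called change in Alternaria against mock leaves are named, with GLK1, GLK2, CCA1 and LHY. LHCB1.3, SIG1, GNC, CGA1 and GUN1 were chosen after values were seen. Alternatives were RLE and upper-quartile scaling, no low-count filter, a replicate block, only the groups compared, organelle genes left out, DESeq2 1.42.0 and each library left out in turn. Tables and figures used pandas 2.3.3, scipy 1.17.1 and matplotlib 3.10.9.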

Additional observations from a re-analysis of the deposited data

How the results depend on the processing

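For Alternaria against mock leaves, 42 genes fell and 0 rose under all 16 alternatives. Upper-quartile scaling moved the median of all tested genes by -0.175 for Alternaria leaves set against mock, -0.196 for those set against untreated and -0.0214 for mock against untreated leaves. The medians over the 43 genes, the antenna, photosystem I and photosystem II were then -0.94, -0.92, -0.96 and -0.94 against mock and -0.84, -0.83, -0.85 and -0.86 against untreated leaves. Leaving out the low-count filter moved the median of all genes by -0.11 in Alternaria against untreated leaves. With 1 library left out, the antenna median against mock was -0.84 (without Alternaria replicate 2) to -0.70, and 36 to 40 genes fell against untreated leaves.

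For mock against untreated leaves the counts were less firm. With 1 library left out, 6 to 15 genes rose, and in the antenna 3 to 8 rose and 1 to 3 fell, with an antenna median of 0.11 to 0.25. In photosystem II 0 rose in the reported fit, 1 with RLE scaling or organelle genes left out, 2 with no low-count filter, only the groups compared or DESeq2, and 0 to 3 with 1 library left out. The cause of these differences was not tested.

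Values near 0 changed sign in 10 genes without being called in either fit. With upper-quartile scaling, mock against untreated values were -0.00702 for LHCB4.1, -0.00666 for PSBR and -0.0198 for PSBY. Without the filter they were 0.00607 for PSBO1, 0.0113 for PSAG and 0.017 for PSAN, and without organelle genes -0.0014 for PSBY. With 1 library left out, they were -0.0179 to 0.0571 for LHCB4.1, -0.00227 to 0.13 for LHCB5, -0.0855 to 0.0432 for PSBO1, -0.0384 to 0.0821 for PSBR, -0.0478 to 0.0358 for PSBY, -0.0704 to 0.0194 for PSAE2, -0.0435 to 0.033 for PSAG and -0.0414 to 0.0134 for PSAN. LHCB4.3 ranged from -0.24 to 0.0104 against mock and LHCB1.5 from -0.15 to 0.000235 against untreated leaves, both in Alternaria leaves.

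With nuclear genes as the denominator, the 43 genes held 6.75%, 11.7% and 10.9% of reads in Alternaria, mock and untreated leaves. Same-numbered libraries showed no shared deviation (r -0.0652 to 0.0341), and the main fit treated libraries as unpaired. These values cannot show whether same-numbered libraries were grown or processed together. A fit with the replicate number as a block called 11940 of all genes and 42 of the 43, all lower, in Alternaria against mock leaves. It called 13942 and 37, all 37 lower, against untreated leaves, and for mock against untreated leaves 6020 in all with 11 of the 43 higher and 3 lower. PSAD2 was the gene not called against untreated leaves.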
